A study of Mus musculus with 4 samples.

Results

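The comparison set NPMc+/Flt3-ITD double mutant cells, sorted as long-term hematopoietic stem cells, against their Mx control. Both libraries were made from FACS-sorted marrow of the limbs and sternum of C57BL/6 mice, 8 to 11 weeks old. The genotypes were labelled NPMc+/FLt3-ITD and MxCRE, and the submitters name Mx as the reference control. A cell barcode was a member of the comparison when it came from either of these libraries, held at least 1000 unique molecular identifiers (UMIs) and 500 genes, and had at most 10% of its UMIs from mitochondrially encoded genes. This gave 5840 of the 10608 cells that passed the same filter in the 4 libraries of the study, 3321 of NPMc+/Flt3-ITD and 2519 of Mx, and the other cells came from NPMc+ and Flt3-ITD libraries. Each genotype had 1 library, so nothing measured the spread between animals, no test between genotypes was possible, and genotype and library cannot be told apart. All ranges in parentheses after a fold are exact 95% intervals that cover counting error only. The labels do not say how many animals entered a library or when the Cre was induced.

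NPMc+ is the cytoplasmic form of nucleophosmin, a nucleolar chaperone, that results from a frameshift in the last coding exon and is a frequent lesion of human acute myeloid leukemia. Flt3-ITD is an internal tandem duplication in the FLT3 receptor tyrosine kinase that leaves it active without ligand, and among its known targets is the transcription factor STAT5. The lesions often occur together in patients, and together they cause an acute myeloid leukemia in mice. Mx-Cre is driven by an interferon-inducible promoter and is active in hematopoietic cells and in some other tissues. Long-term stem cells sit at the top of the blood hierarchy, divide rarely, and carry little FLT3 or CD48 on their surface, which separates them from multipotent progenitors.

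The 2 libraries had like depths. The kept cells held 26965367 UMIs in NPMc+/Flt3-ITD and 20943905 in Mx, with medians of 7323 and 8094 UMIs and of 2952 and 3008 genes per cell. Cell barcodes common to both libraries numbered 21, of which 9 were kept in both. Levels are given as UMIs summed over the kept cells of a library over all UMIs of those cells, times 1000000 (CPM), and shares of cells as the percentage with a UMI after every cell had been thinned to 3000 UMIs, which left 2991 and 2311 cells. A cell was called male from UMIs of Y-linked genes without Xist, and female from the reverse. By that call 2425 cells were male and 179 female in NPMc+/Flt3-ITD, and 1218 and 583 in Mx, so each library held more than 1 animal and the sexes were unequally represented. Values within each sex are given beside some of the results.

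The sort label was checked against markers. Markers of long-term stem cells summed to 532 CPM in NPMc+/Flt3-ITD and 1403 CPM in Mx, 2.64-fold lower (2.59 to 2.69). At least 3 UMIs of that set were found in 24.3% of NPMc+/Flt3-ITD cells (22.8 to 25.9%) and 74.1% of Mx cells (72.2 to 75.9%). All 13 markers had UMIs in both libraries. Markers of multipotent or lymphoid-primed progenitors went the other way, with 1982 CPM in NPMc+/Flt3-ITD and 600.4 CPM in Mx. The T lineage set stood at 1820.0 CPM in NPMc+/Flt3-ITD against 47.9 CPM in Mx, with 39.4% of NPMc+/Flt3-ITD cells and 0.303% of Mx cells at 3 UMIs or more. The mast or basophil set stood at 659 CPM in NPMc+/Flt3-ITD and 19.96 CPM in Mx, with 27.5% and 0.303% of cells. Only 3 of the 8 members found in the data reached 20 CPM in either library. Of the 823 such NPMc+/Flt3-ITD cells 73.3% also held at least 3 T lineage UMIs, so the share does not count mast cells or basophils. Of the T lineage markers 0 were without UMIs in NPMc+/Flt3-ITD and 1, Il2ra, in Mx. Only 8 of these 15 markers reached 20 CPM in either library. Cd3d, Cd3e, Cd3g, Trac, Trbc2, Ptcra and Il2ra did not. The B lineage, granulocyte and megakaryocyte sets stood at 199.7, 625 and 321 CPM in NPMc+/Flt3-ITD and at 50.04, 713 and 336 CPM in Mx. The erythroid set stood at 908 CPM in NPMc+/Flt3-ITD and 1640.0 CPM in Mx, with 36.6% of NPMc+/Flt3-ITD cells and 71.9% of Mx cells at 3 UMIs or more. A single member, Car2, gave most of that sum in both libraries, so these shares do not count committed erythroid cells. In summed libraries, fewer cells of a type and less RNA per cell cannot be told apart.

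Of 6938 genes with at least 20 CPM in either library, 376 (5.42%) were at least 2-fold higher in NPMc+/Flt3-ITD and 398 (5.74%) at least 2-fold lower. The centre of all 6938 genes lay slightly above no difference, at a median log2 ratio of 0.21. A library total taken without mitochondrially encoded and ribosomal protein genes moved that median to -0.02, and then 343 genes were higher and 649 lower. The 20 CPM floor was applied again in that and every other alternative, so the genes measured could differ. That total let more genes over the floor, and some list medians and counts moved with the added members. Of the 376 higher genes 153 had a UMI in at least 20% of the thinned NPMc+/Flt3-ITD cells, and of the 398 lower genes 189 did so in Mx. Among the highest ratios were lymphoid, T lineage and granule genes that the Mx library nearly lacked, and among the lowest were Meg3, Ndn, Fhl1, Mmrn1, Wdr89 and the mitochondrially encoded gene mt-Co2.

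**Figure D1:**
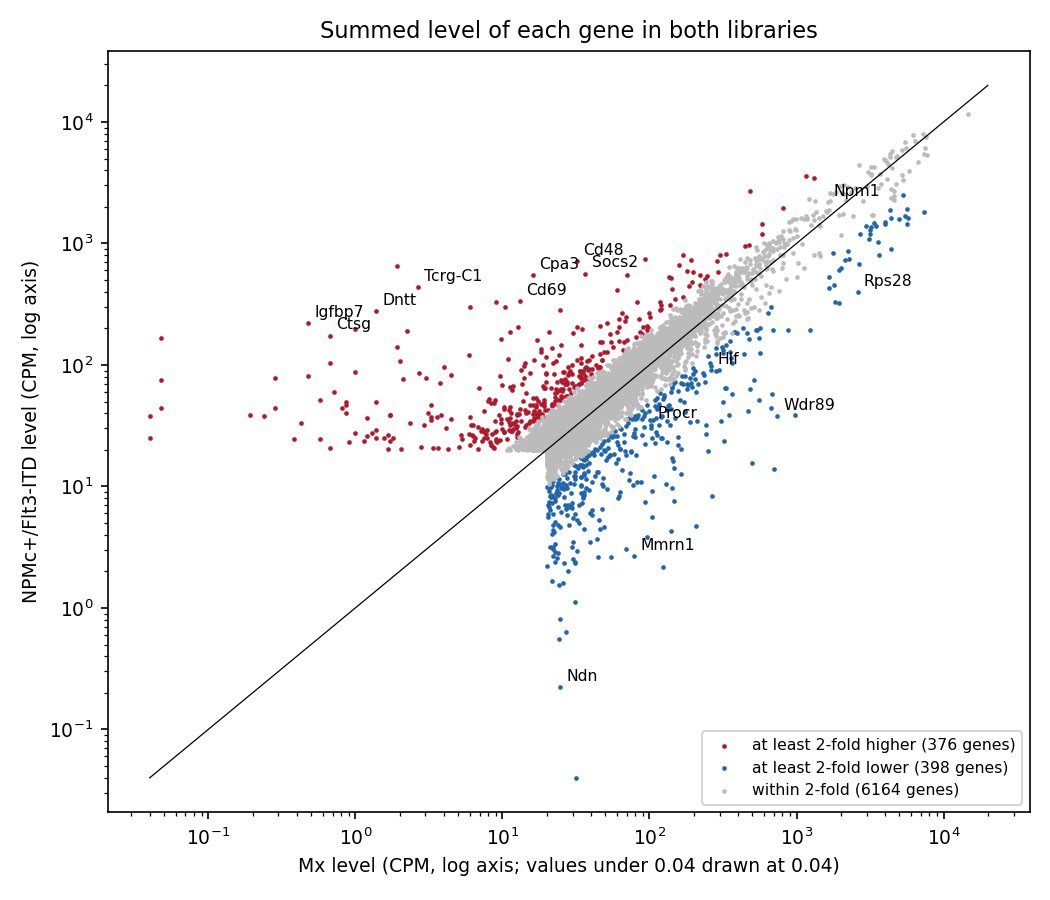
Level of each of 6938 genes (points) in the NPMc+/Flt3-ITD library (vertical, CPM) and the Mx library (horizontal, CPM), both on log axes, with the line of equal level. The 376 genes in red lay at least 2-fold above that line and the 398 in blue at least 2-fold below it, with Tcrg-C1, Dntt and Igfbp7 far above and Mmrn1, Ndn and Wdr89 far below.

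Genes of long-term stem cell identity were mostly lower in NPMc+/Flt3-ITD. Of 37 measured members of that list 19 were at least 2-fold lower and 5 higher, with a median log2 ratio of -1.07 against 0.21 over all genes. Procr, the endothelial protein C receptor that marks long-term stem cells (mm10 chromosome 2, 155751117 to 155755471, plus strand), stood at 32.3 CPM in NPMc+/Flt3-ITD and 103 CPM in Mx, 3.18-fold lower (2.94 to 3.44), and was detected in 8.99% of NPMc+/Flt3-ITD cells and 28.2% of Mx cells. The transcription factor genes Hlf and Mecom, both needed for stem cell maintenance in mice, were lower too. Hlf had 90.6 CPM in NPMc+/Flt3-ITD and 264 CPM in Mx, 2.91-fold lower (2.78 to 3.06), and Mecom had 42.9 CPM in NPMc+/Flt3-ITD and 131 CPM in Mx, 3.06-fold lower (2.86 to 3.28). Their shares were 21.8% of NPMc+/Flt3-ITD cells and 52.8% of Mx cells for Hlf and 12.5% of NPMc+/Flt3-ITD cells and 32.7% of Mx cells for Mecom. Esam, an adhesion molecule of stem cells, stood at 25.2 CPM in NPMc+/Flt3-ITD and 104 CPM in Mx. Among the lowest genes of the whole comparison were Fhl1, a LIM-domain gene, with 0.556 CPM in NPMc+/Flt3-ITD and 24.4 CPM in Mx, and Clec1a, a C-type lectin gene, with 1.59 CPM in NPMc+/Flt3-ITD and 25.9 CPM in Mx. The calcium channel gene Trpc6 stood at 2.97 CPM in NPMc+/Flt3-ITD and 32.2 CPM in Mx.

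Not every stem cell gene was at least 2-fold lower. Mycn, a MYC family factor, had 290.1 CPM in NPMc+/Flt3-ITD and 120.5 CPM in Mx, 2.41-fold higher (2.303 to 2.52). Gata2, a factor of stem cells and early myeloid cells, had 239 CPM in NPMc+/Flt3-ITD and 235 CPM in Mx, and Erg, another stem cell factor, had 101 CPM in NPMc+/Flt3-ITD and 112 CPM in Mx. Ly6a, which encodes the Sca-1 surface protein used to sort stem cells, had 133 CPM in NPMc+/Flt3-ITD and 162 CPM in Mx, and Kit, the stem cell factor receptor used likewise, had 106 CPM in NPMc+/Flt3-ITD and 175 CPM in Mx. The list's median was -1.31 in male cells and -0.28 in female cells. It was -0.43 once every cell with at least 3 UMIs of the T lineage markers before thinning was left out. That cut kept 1089 of 3321 NPMc+/Flt3-ITD cells and 2500 of 2519 Mx cells. It took out more NPMc+/Flt3-ITD cells than the 1179 that held at least 3 such UMIs after thinning. All values given without the T lineage cells use this cut. Deeper cells reach 3 UMIs more readily, so the cut does not count T lineage cells. The part of RNA free in the droplets in it was not tested. Procr was 3.65-fold lower among male cells and 1.58-fold lower among female cells and Hlf was 3.07-fold lower among male cells and 2.84-fold lower among female cells.

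Surface markers of multipotent progenitors were higher. Of 11 measured members 7 were higher by at least 2-fold and 0 lower, with a median of 1.24. In female cells 3 were higher, with a median of 0.51, and without the T lineage cells 3, with a median of 0.80. Cd48, which encodes a signalling lymphocyte activation family ligand (mm10 chromosome 1, 171682009 to 171705258, plus strand), stood at 720.3 CPM in NPMc+/Flt3-ITD and 31.99 CPM in Mx, 22.5-fold higher (20.8 to 24.4). It was detected in 74.1% of NPMc+/Flt3-ITD cells and 6.97% of Mx cells, the largest gap in share among the genes plotted below. Flt3, the receptor whose gene carries the duplication (mm10 chromosome 5, 147330741 to 147400489, minus strand), stood at 70.9 CPM in NPMc+/Flt3-ITD and 29.9 CPM in Mx, 2.37-fold higher (2.16 to 2.59). Cd34, a sialomucin of progenitors, had 448 CPM in NPMc+/Flt3-ITD and 233 CPM in Mx, 1.92-fold higher (1.86 to 1.99), just under the 2-fold line. Plac8, a small cysteine-rich protein gene of progenitors and activated leukocytes, had 2709.5 CPM in NPMc+/Flt3-ITD and 484 CPM in Mx, 5.600-fold higher (5.48 to 5.72), and Cd53, a tetraspanin gene, had 153 CPM in NPMc+/Flt3-ITD and 47.6 CPM in Mx, 3.22-fold higher (3.01 to 3.46). Within the NPMc+/Flt3-ITD library Procr was detected in 9.16% of the 2217 cells with a Cd48 UMI (7.99 to 10.4%) and 8.53% of the 774 without one (6.66 to 10.7%), so these intervals overlapped. Cd48 was 23.5-fold higher among male cells and 11.3-fold higher among female cells.

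**Figure D2:**
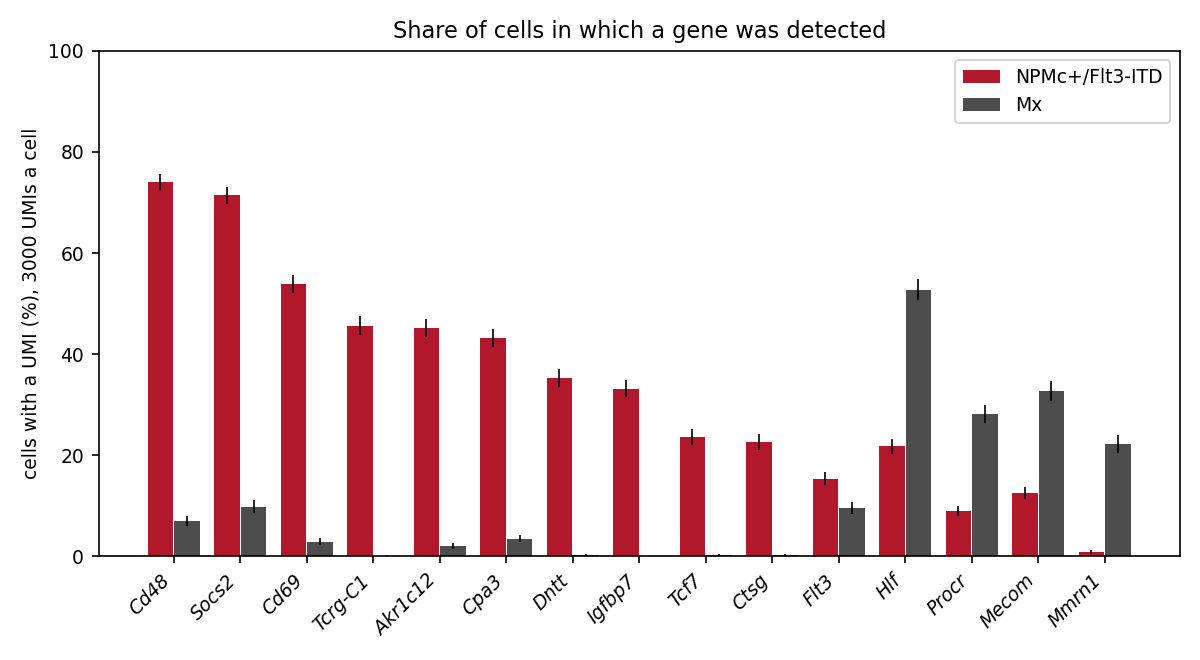
Percentage of cells with a UMI of each gene after thinning to 3000 UMIs (bars, NPMc+/Flt3-ITD red and left, Mx grey), with exact 95% intervals for counting error. Cd48, Socs2, Cd69 and the lymphoid and granule genes were found in a larger share of NPMc+/Flt3-ITD cells, and Hlf, Procr, Mecom and Mmrn1 in a larger share of Mx cells.

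Free RNA in the droplets could give a UMI to cells that do not express a gene. Committed erythroid cells, which should lack most of these genes, numbered 6 in each library, with median depths of 15692 UMIs in NPMc+/Flt3-ITD and 15241 in Mx. None of those 6 NPMc+/Flt3-ITD cells held Tcf7, Dntt, Cpa3, Ctsg or Igfbp7, an observation that allows a share of up to 45.9%, whereas 4 held Tcrg-C1 and 3 held Cd48. The 203 NPMc+/Flt3-ITD barcodes under 1000 UMIs had 355 CPM of Tcrg-C1, 203 of Dntt and 182 of Tcf7, against 439, 276 and 192 CPM in kept cells of that library. They had 719 CPM of Cd69, 608 of Trbc1 and 142 of Gzmb, against 333, 330.0 and 80.6 CPM in kept cells. For Igfbp7, Ctsg and Socs2 those barcodes had 243, 223 and 578 CPM, against 222, 174 and 563 CPM in kept cells. The part of free RNA in the shares of Tcrg-C1, Cd48, Cd69, Trbc1, Gzmb, Igfbp7, Ctsg and Socs2 was not tested.

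Cytokine feedback genes, many of them known STAT5 targets, were in part higher. Of 25 measured members 9 were higher by at least 2-fold and 1 lower, with a median of 0.40. The median was 0.09 under the total without mitochondrial and ribosomal protein genes, where further members passed the floor. Socs2, a feedback inhibitor of cytokine receptors, stood at 563 CPM in NPMc+/Flt3-ITD and 36.7 CPM in Mx, 15.4-fold higher (14.3 to 16.5), and was detected in 71.4% of NPMc+/Flt3-ITD cells and 9.82% of Mx cells. Osm, the cytokine oncostatin M, had 121 CPM in NPMc+/Flt3-ITD and 5.92 CPM in Mx, 20.4-fold higher (17.04 to 24.6), and Cish, another SOCS family inhibitor, had 48.8 CPM in NPMc+/Flt3-ITD and 19.1 CPM in Mx, 2.55-fold higher (2.28 to 2.86). The serine/threonine kinase gene Pim2 had 145 CPM in NPMc+/Flt3-ITD and 24.9 CPM in Mx, 5.83-fold higher (5.32 to 6.396), and Pim1, its relative, stood at 798 CPM in NPMc+/Flt3-ITD and 304 CPM in Mx. Dusp5, a phosphatase gene that dampens ERK signalling, had 188 CPM in NPMc+/Flt3-ITD and 20.7 CPM in Mx, 9.11-fold higher (8.25 to 10.1). Bcl2, the survival gene, had 327 CPM in NPMc+/Flt3-ITD and 82.4 CPM in Mx, 3.98-fold higher (3.78 to 4.19), and Cdk6, a cyclin-dependent kinase of the G1 phase, had 720.3 CPM in NPMc+/Flt3-ITD and 287 CPM in Mx, 2.51-fold higher (2.44 to 2.59). The STAT5 genes themselves differed less, with Stat5a at 103 CPM in NPMc+/Flt3-ITD against 79.1 CPM in Mx and Stat5b at 38.6 CPM in NPMc+/Flt3-ITD against 33.5 CPM in Mx.

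The feedback genes Socs2, Osm and Cdk6 were higher in both sexes. Socs2 was 17.8-fold higher among male cells and 7.05-fold higher among female cells, Osm was 14.5-fold higher among male cells and 16.2-fold higher among female cells, and Cdk6 was 2.38-fold higher among male cells and 2.53-fold higher among female cells. Bcl2 did not follow the same pattern inside the library as Socs2. Among NPMc+/Flt3-ITD cells with at least 3, with 1 to 2 and with 0 UMIs of the T lineage markers, Bcl2 stood at 783, 154 and 132 CPM, and Socs2 at 493, 603 and 452 CPM. Cells with an Osm UMI held a Socs2 UMI in 74.8% of cases, against 70.5% of cells without one.

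The promoters of the feedback genes were searched on both strands for TTCNNNGAA, the palindrome that STAT5 binds, in the 300 bases around each start, most of them before it, in RefSeq (GRCm38.p6). Of the 9 genes at least 2-fold higher 7 had a promoter in the table, and 2 of these, Cish and Socs3, held the motif. The share was 9.73% over the promoters of all genes at least 2-fold higher, 5.33% over those of the lower genes, 8.00% over those of all measured genes and 9.55% over all 27025 promoters. Socs3 had 51.5 CPM in NPMc+/Flt3-ITD and 24.2 CPM in Mx, 2.13-fold higher (1.92 to 2.37). The 2 windows are printed because they hold the motif within this list, with the matches in capitals. The Cish window has 2 matches, at the start and 11 bases after it, and the Socs3 match lies at -154.
Cish promoter, chr9:107296409-107296708, plus strand: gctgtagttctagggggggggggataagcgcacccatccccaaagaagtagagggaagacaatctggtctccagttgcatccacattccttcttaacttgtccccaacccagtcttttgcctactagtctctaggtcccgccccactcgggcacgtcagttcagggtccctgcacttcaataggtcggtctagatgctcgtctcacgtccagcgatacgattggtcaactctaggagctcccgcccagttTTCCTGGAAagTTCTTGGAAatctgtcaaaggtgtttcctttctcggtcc
Socs3 promoter, chr11:117969317-117969616, minus strand: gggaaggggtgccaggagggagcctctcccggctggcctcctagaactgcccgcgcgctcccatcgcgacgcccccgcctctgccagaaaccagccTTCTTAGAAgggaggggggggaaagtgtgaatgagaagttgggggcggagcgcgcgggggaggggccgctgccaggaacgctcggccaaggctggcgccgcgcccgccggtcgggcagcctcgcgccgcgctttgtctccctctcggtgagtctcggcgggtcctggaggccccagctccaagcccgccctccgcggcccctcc
No match in the other 5 windows says only that those letters are absent from these 300 bases.

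T lineage genes had the highest median of the 36 lists, 3.68. At least 2-fold higher were 17 of the 25 that could be measured, and 1 was lower. The list held 49 genes, and those not measured were under the floor in both libraries. A member nearly absent from Mx could pass the floor on its NPMc+/Flt3-ITD level alone. The count of higher members and the list median therefore depend in part on the floor. Tcf7, the transcription factor TCF1 that starts T lineage specification (mm10 chromosome 11, 52252371 to 52283014, minus strand), stood at 192 CPM in NPMc+/Flt3-ITD and 2.24 CPM in Mx, 85.6-fold higher (64.3 to 117), and was detected in 23.6% of NPMc+/Flt3-ITD cells and 0.216% of Mx cells. Bcl11b, a factor of T lineage commitment, had 87.9 CPM in NPMc+/Flt3-ITD and 1.003 CPM in Mx, 87.6-fold higher (57.2 to 142). Among constant genes of the gamma T cell receptor, which are near-identical to each other in part so that reads may be shared, Tcrg-C1 stood at 439 CPM in NPMc+/Flt3-ITD and 2.67 CPM in Mx, Tcrg-C4 at 199 CPM in NPMc+/Flt3-ITD and 1.003 CPM in Mx and Tcrg-C2 at 168 CPM in NPMc+/Flt3-ITD with 1 UMI in Mx. Trbc1, the beta receptor constant gene, had 330.0 CPM in NPMc+/Flt3-ITD and 9.07 CPM in Mx. The signalling gene Lck, a T cell kinase, had 185 CPM in NPMc+/Flt3-ITD and 11.3 CPM in Mx, 16.5-fold higher (14.4 to 18.8), and Themis, a T cell receptor signalling gene, had 38.01 CPM in NPMc+/Flt3-ITD and 0.239 CPM in Mx, 159-fold higher (68.01 to 491). From the receptor list, Il18r1, an interleukin-18 receptor chain, had 71.2 CPM in NPMc+/Flt3-ITD and 3.77 CPM in Mx, 18.9-fold higher (15.1 to 23.96). Hes1, a Notch target, went the other way at 10.5 CPM in NPMc+/Flt3-ITD against 30.5 CPM in Mx.

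Lymphoid priming genes were divided. Of 22 measured members 6 were higher by at least 2-fold and 2 lower, with a median of 0.60. In female cells 2 were higher and 0 lower, with a median of 0.11. Dntt, the terminal transferase of lymphoid progenitors (mm10 chromosome 19, 41029275 to 41059525, plus strand), stood at 276 CPM in NPMc+/Flt3-ITD and 1.38 CPM in Mx, 199-fold higher (139 to 298), and was detected in 35.2% of NPMc+/Flt3-ITD cells and 0.216% of Mx cells. Ighm, the heavy chain constant gene of immunoglobulin M, had 140.4 CPM in NPMc+/Flt3-ITD and 1.91 CPM in Mx, 73.5-fold higher (53.9 to 103). Arpp21, a phosphoprotein gene active in lymphoid progenitors, had 44.5 CPM in NPMc+/Flt3-ITD and 0.286 CPM in Mx, 155-fold higher (71.2 to 424). Outside the list, Ly6d, a surface marker that separates lymphoid progenitor stages, had 74.9 CPM in NPMc+/Flt3-ITD and 1 UMI in Mx. Satb1, a chromatin organiser of lymphoid progenitors, had 52.1 CPM in NPMc+/Flt3-ITD and 8.12 CPM in Mx. Mef2c, a factor with lymphoid and myeloid roles, had 156 CPM in NPMc+/Flt3-ITD and 239.9 CPM in Mx, and Bcl11a, needed for lymphoid development, had 94.05 CPM in NPMc+/Flt3-ITD and 174 CPM in Mx.

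The T lineage genes did not lie evenly over the cells. Of 2991 thinned NPMc+/Flt3-ITD cells 1179 (39.4%) held at least 3 UMIs of the marker set, 1055 held 1 or 2 and 757 held 0, whereas in Mx the counts were 7, 170.0 and 2134. The line at 3 UMIs cuts a range, with 391 cells at 2 UMIs and 235 at 3 in NPMc+/Flt3-ITD. The 3 classes had medians of 1, 2 and 2 UMIs of the stem cell set, 7, 5 and 4 of the progenitor set, 3, 0 and 0 of the mast or basophil set and 0, 2 and 3 of the erythroid set, from at least 3 T lineage UMIs down to 0. Trbc1, Ly6d and the mast cell gene Cpa3 were detected more often in cells with Tcf7. Trbc1 was detected in 69.2% of the 707 cells with a Tcf7 UMI and 9.46% of the 2284 without, Ly6d in 29.6% and 2.28%, and Cpa3 in 85.9% and 29.95%. Hlf was rarer in the cells with Tcf7, at 7.64% against 26.2%.

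Genes outside the marker set separated by class. Dntt stood at 659, 142 and 67.4 CPM in cells with at least 3, 1 to 2 and 0 T lineage UMIs, and Ighm at 365, 60.7 and 29.1 CPM. In the same order Gzma, a granzyme gene, stood at 181, 2.53 and 2.202 CPM and Arpp21 at 164, 5.69 and 3.96 CPM. The stem cell genes ran the other way, with Procr at 18.1, 45.5 and 48.4 CPM and Meis1 at 108, 236 and 292 CPM. Cd48 and Osm varied less, with Cd48 at 606, 740.0 and 543 CPM and Osm at 112, 111 and 105 CPM. With 0 T lineage UMIs, Procr stood at 48.4 CPM against its level of 119 CPM in all thinned Mx cells, and Cd48 at 543 CPM lay above the Mx level of 30.1 CPM.

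**Figure D3:**
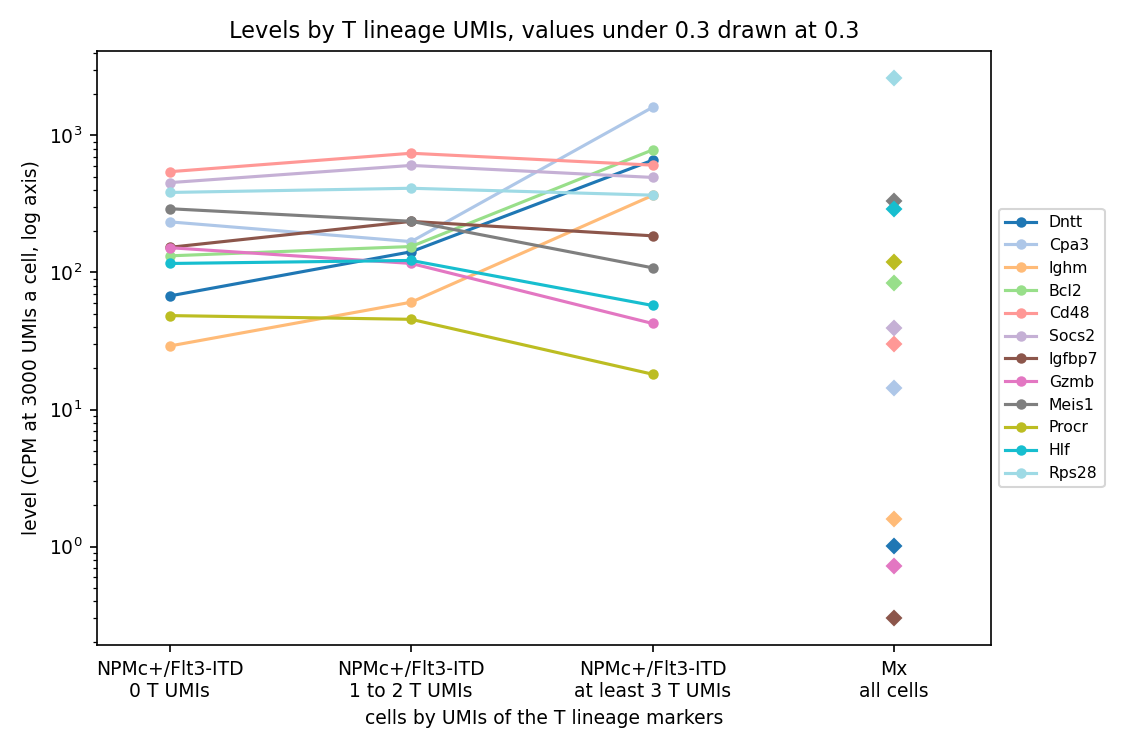
Level (CPM at 3000 UMIs a cell, log axis) of 12 genes in NPMc+/Flt3-ITD cells with 0, with 1 to 2 and with at least 3 UMIs of the T lineage markers (joined circles), and in all Mx cells (diamonds). Dntt, Cpa3, Ighm and Bcl2 were highest in the class with at least 3, Meis1 and Procr were lowest there, and Rps28 lay between 366 and 411 CPM in all 3 classes against 2629 CPM in Mx.

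The split by sex was steep for these sets. Among NPMc+/Flt3-ITD cells, at least 3 T lineage UMIs were found in 42.6% of 2258 male cells and in 7 of 168 female cells (4.17%), and at least 3 mast or basophil UMIs in 28.8% and 5.95%. At least 3 stem cell UMIs were found in 21.9% of the male and 45.8% of the female cells. In Mx the stem cell shares were 76.3% and 70.8%. The median of the T lineage list was 3.58 in male cells and 0.28 in female cells, of which NPMc+/Flt3-ITD had 179. Dntt was 144-fold higher among male cells and 26.96-fold higher among female cells, and Tcf7 stood at 31.8 CPM in female NPMc+/Flt3-ITD cells thinned to 3000 UMIs and at 289.5 CPM in male ones. Sex, animal and T lineage content cannot be told apart within this library, since the labels tie no cell to an animal.

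**Figure D4:**
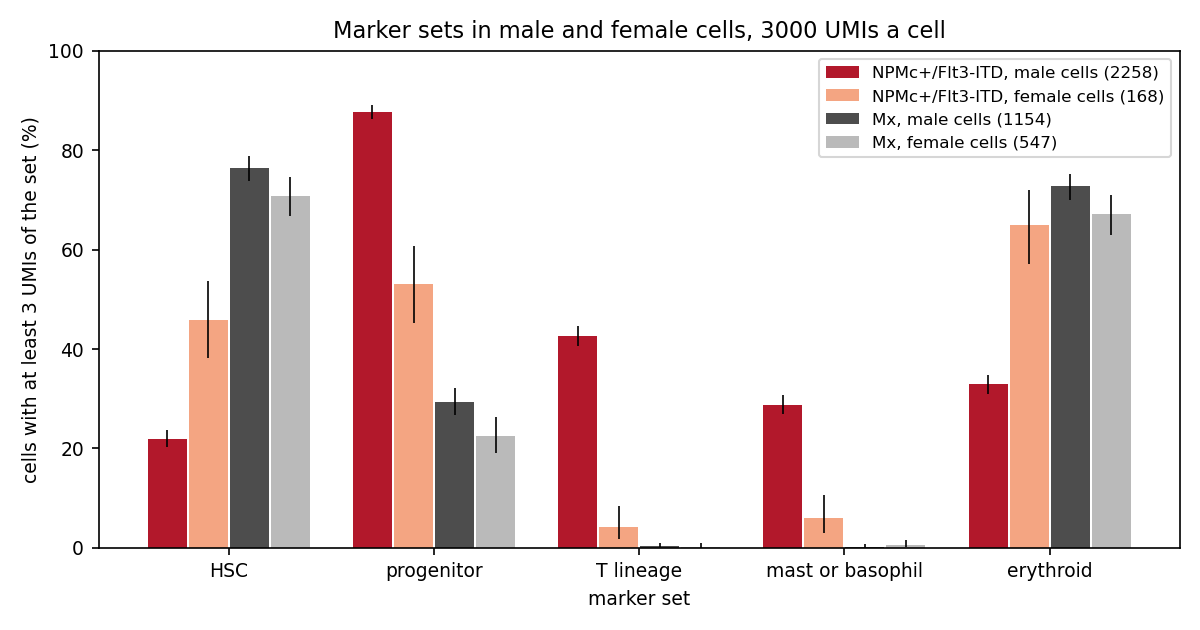
Percentage of thinned cells with at least 3 UMIs of each of 5 marker sets in male and female cells (bars, NPMc+/Flt3-ITD left of Mx), with exact 95% intervals for counting error. T lineage UMIs reached 3 in 42.6% of male and 4.17% of female NPMc+/Flt3-ITD cells, mast or basophil UMIs in 28.8% and 5.95%, and stem cell UMIs in 21.9% and 45.8%.

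Myeloid genes differed both ways, with the granule gene Ctsg among the highest ratios of the comparison. At least 3 UMIs of the granulocyte set were found in 17.8% of NPMc+/Flt3-ITD cells and 25.6% of Mx cells. Of 22 measured myeloid genes 9 were at least 2-fold higher and 2 lower, with a median of 0.85. Ctsg, the neutrophil protease cathepsin G (mm10 chromosome 14, 56099881 to 56102574, minus strand), stood at 174 CPM in NPMc+/Flt3-ITD and 0.668 CPM in Mx, 260.3-fold higher (155 to 476), and was detected in 22.6% of NPMc+/Flt3-ITD cells and 0.216% of Mx cells. In the 206 Mx barcodes under 1000 UMIs Ctsg had 23 UMIs, against 14 in all kept Mx cells. Mpo, myeloperoxidase, had 34.4 CPM in NPMc+/Flt3-ITD and 8.98 CPM in Mx, 3.83-fold higher (3.27 to 4.504), and Clec12a, an inhibitory lectin receptor of myeloid cells, had 76.8 CPM in NPMc+/Flt3-ITD and 2.101 CPM in Mx, 36.6-fold higher (27.1 to 50.5). Cebpa, a factor of granulocyte and monocyte fate, had 27.8 CPM in NPMc+/Flt3-ITD and 7.54 CPM in Mx, 3.69-fold higher (3.102 to 4.41). Prtn3, proteinase 3, had 300.4 CPM in NPMc+/Flt3-ITD and 518 CPM in Mx, and the calprotectin genes S100a8 and S100a9 of mature neutrophils stood at 19.7 CPM in NPMc+/Flt3-ITD against 75.2 CPM in Mx and 18.02 CPM in NPMc+/Flt3-ITD against 54.3 CPM in Mx, so the genes of the granulocyte lineage did not share 1 direction.

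Of 11 measured mast and basophil genes 6 were at least 2-fold higher and 0 lower, with a median of 1.82. The median was 0.23 under the total without mitochondrial and ribosomal protein genes, where further members passed the floor. The 2 medians therefore cover different members. Cpa3, the mast cell carboxypeptidase, stood at 549.7 CPM in NPMc+/Flt3-ITD and 16.1 CPM in Mx, 34.2-fold higher (30.7 to 38.2), and was detected in 43.2% of NPMc+/Flt3-ITD cells and 3.505% of Mx cells. Gzmb, granzyme B, had 80.6 CPM in NPMc+/Flt3-ITD and 0.477 CPM in Mx, 169-fold higher (91.6 to 352), and Mcpt8, a basophil protease, had 25.1 CPM in NPMc+/Flt3-ITD and 0 UMIs in Mx, at least 175-fold higher against 3 counts. These genes did not share cells in 1 way. Cpa3 stood at 1602, 168 and 234 CPM in cells with at least 3, 1 to 2 and 0 T lineage UMIs, whereas Gzmb stood at 42.4, 116 and 152 CPM and Ctsg at 142, 159.9 and 99.5 CPM. Cells with a Cpa3 UMI held Gzmb in 15.1% and Ctsg in 18.1% of cases, against 9.24% and 26.0% of cells without Cpa3. Cpa3 was 30.1-fold higher among male cells and 12.1-fold higher among female cells. The granzyme gene Gzmb and the Arpp21 and Atp8b4 genes are among 26 higher genes whose promoter holds TGANTCA, the site bound by AP-1, found in 10.1% of the 257 promoters of higher genes, 6.56% of those of lower genes, 5.52% of those of all measured genes and 8.97% of all promoters. The windows of Gzmb and Arpp21 are printed with the match in capitals, at -58 and -102 from the start, as examples of genes at the top of the comparison.
Gzmb promoter, chr14:56262285-56262584, minus strand: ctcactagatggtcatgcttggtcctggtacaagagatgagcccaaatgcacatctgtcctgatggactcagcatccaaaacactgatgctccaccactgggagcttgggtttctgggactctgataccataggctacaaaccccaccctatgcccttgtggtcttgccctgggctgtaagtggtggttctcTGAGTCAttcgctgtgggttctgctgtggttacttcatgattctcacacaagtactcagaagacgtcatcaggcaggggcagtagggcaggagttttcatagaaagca
Arpp21 promoter, chr9:112185900-112186199, minus strand: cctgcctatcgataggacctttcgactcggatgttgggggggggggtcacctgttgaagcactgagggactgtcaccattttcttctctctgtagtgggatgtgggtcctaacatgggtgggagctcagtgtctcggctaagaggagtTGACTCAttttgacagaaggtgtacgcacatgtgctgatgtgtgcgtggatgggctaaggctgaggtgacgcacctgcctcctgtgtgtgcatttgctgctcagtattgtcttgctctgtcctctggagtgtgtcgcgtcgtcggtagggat

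Several of the highest genes belonged to none of these lists. Igfbp7, a secreted insulin-like growth factor binding protein, stood at 222 CPM in NPMc+/Flt3-ITD and 0.477 CPM in Mx, 464-fold higher (252 to 968). It was detected in 33.1% of NPMc+/Flt3-ITD cells and in 0 of 2311 Mx cells, an exact upper limit of 0.1595%, and before thinning in 48.2% and 0.397%. Tcf7 was rarer beside Igfbp7 and was detected in 8.48% of the 991 cells with Igfbp7 and 31.2% of the 2000 without. Cells with Igfbp7 more often held Ctsg (33.5% against 17.2%) and Cd48 (85.2% against 68.7%). Gdf10, a bone morphogenetic protein family gene, had 37.9 CPM in NPMc+/Flt3-ITD and 0 UMIs in Mx, at least 265-fold higher against 3 counts. Akr1c12, an aldo-keto reductase gene, had 302 CPM in NPMc+/Flt3-ITD and 6.02 CPM in Mx, 50.2-fold higher (42.1 to 60.3) and was detected in 45.2% of NPMc+/Flt3-ITD cells and 1.99% of Mx cells. Clec2i, a C-type lectin gene, had 104 CPM in NPMc+/Flt3-ITD and 0.668 CPM in Mx, 156-fold higher (92.9 to 286), Xlr, an X-linked lymphocyte gene, had 109 CPM in NPMc+/Flt3-ITD and 2.01 CPM in Mx, 54.2-fold higher (40.00 to 75.4), and Cst7, the protease inhibitor cystatin F, had 85.9 CPM in NPMc+/Flt3-ITD and 2.72 CPM in Mx, 31.6-fold higher (24.3 to 41.8). Igfbp7 was 55.6 CPM in female NPMc+/Flt3-ITD cells and 236 CPM in male ones. The NPMc+/Flt3-ITD barcodes under 1000 UMIs had 243 CPM of it, and the part of free RNA in the female level was not tested.

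Megakaryocyte genes split evenly. Of 22 measured members 5 were higher by at least 2-fold and 5 lower, with a median of -0.15 that turned positive in female cells (0.49) and without the T lineage cells (0.40). Mmrn1, a platelet granule protein gene, had 2.67 CPM in NPMc+/Flt3-ITD and 78.3 CPM in Mx, 29.3-fold lower (23.1 to 37.6), and was detected in 0.802% of NPMc+/Flt3-ITD cells and 22.2% of Mx cells. Aldh1a1, a retinaldehyde dehydrogenase, had 8.97 CPM in NPMc+/Flt3-ITD and 63.3 CPM in Mx, 7.05-fold lower (6.14 to 8.12), and Selp, platelet P-selectin, had 6.97 CPM in NPMc+/Flt3-ITD and 28.1 CPM in Mx. On the other side F2r, a thrombin receptor, had 267 CPM in NPMc+/Flt3-ITD and 64.6 CPM in Mx, and Serpine2, which encodes protease nexin 1, had 37.3 CPM in NPMc+/Flt3-ITD and 3.29 CPM in Mx, 11.3-fold higher (8.86 to 14.7). Serpine2 lay mainly in the T lineage cells, at 104, 4.74 and 7.04 CPM with at least 3, 1 to 2 and 0 T lineage UMIs. Outside the list, Gng11, a G protein subunit gene of platelets, had 12.7 CPM in NPMc+/Flt3-ITD and 163 CPM in Mx, 12.8-fold lower (11.5 to 14.4).

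Of 11 erythroid genes 1 was at least 2-fold higher and 3 lower, with a median of -0.51, against 1.24 in female cells. Car2, a carbonic anhydrase of early erythroid cells, stood at 793 CPM in NPMc+/Flt3-ITD and 1438 CPM in Mx, and Klf1, the erythroid master factor, at 5.45 CPM in NPMc+/Flt3-ITD and 10.4 CPM in Mx. Hbb-bt, an adult beta globin gene, had 18.3 CPM in NPMc+/Flt3-ITD and 68.9 CPM in Mx. The transferrin receptor gene Tfrc was the higher member at 20.3 CPM in NPMc+/Flt3-ITD against 6.78 CPM in Mx.

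Quiescence genes differed both ways. Of 28 measured members 5 were higher by at least 2-fold and 7 lower, with a median of 0.11. The median was -0.26 under the total without mitochondrial and ribosomal protein genes, where further members passed the floor. The imprinted members were lowest. Meg3, an imprinted noncoding RNA of stem cells, had 0 UMIs in NPMc+/Flt3-ITD and 31.5 CPM in Mx, at least 283-fold lower against 3 counts. Ndn, which encodes necdin, had 0.223 CPM in NPMc+/Flt3-ITD and 24.8 CPM in Mx, 112-fold lower (50.9 to 305), and Grb10, an adaptor of growth factor receptors, had 1.11 CPM in NPMc+/Flt3-ITD and 31.2 CPM in Mx, 28.1-fold lower (19.5 to 41.9). Cdkn1c, the p57 inhibitor of cyclin-dependent kinases, had 16.5 CPM in NPMc+/Flt3-ITD and 50.9 CPM in Mx, 3.09-fold lower (2.76 to 3.46). The other inhibitors went the other way or differed little, with Cdkn1a, p21, at 136 CPM in NPMc+/Flt3-ITD against 18.3 CPM in Mx, Cdkn2c, p18, at 117 CPM in NPMc+/Flt3-ITD against 19.8 CPM in Mx and Cdkn1b, p27, at 40.5 CPM in NPMc+/Flt3-ITD against 49.8 CPM in Mx. Ndn and Meg3 were detected in 0.0669% and 0% of NPMc+/Flt3-ITD cells and in 7.79% and 4.89% of Mx cells.

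Proliferation genes differed by less than 2-fold in most cases. Of 42 measured G1/S and S phase genes 0 were at least 2-fold higher and 0 lower, with a median of 0.38, and of 26 G2/M genes 3 were higher and 0 lower, with a median of 0.54. In female cells 16 of the G2/M genes were higher, with a median of 0.91, and in male cells 7, with a median of 0.76. Mki67, the proliferation antigen, had 23.7 CPM in NPMc+/Flt3-ITD and 28.4 CPM in Mx, 1.197-fold lower (1.07 to 1.34), and Top2a, the mitotic topoisomerase, had 78.8 CPM in NPMc+/Flt3-ITD and 77.5 CPM in Mx. Mcm6, a subunit of the replicative helicase, had 304 CPM in NPMc+/Flt3-ITD and 188 CPM in Mx. Smc4, a condensin subunit, had 309 CPM in NPMc+/Flt3-ITD and 120.3 CPM in Mx, 2.57-fold higher (2.46 to 2.69), and its level lay mainly in the T lineage cells, at 660.4, 176 and 181 CPM with at least 3, 1 to 2 and 0 T lineage UMIs. Of 8 genes of the D-type cyclin group, Cdk6 was higher and Ccnd1, cyclin D1, had 1.56 CPM in NPMc+/Flt3-ITD and 24.4 CPM in Mx, 15.6-fold lower (11.4 to 21.96), while Ccnd2 had 279 CPM in NPMc+/Flt3-ITD and 350.4 CPM in Mx and Cdk4 had 493 CPM in NPMc+/Flt3-ITD and 339 CPM in Mx.

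Immediate-early genes, which respond within minutes to signals and also to tissue dissociation, were higher as a group. Of 29 measured members 14 were higher by at least 2-fold and 0 lower, with a median of 0.95, and the median was 0.82 in male and 1.21 in female cells. The count higher was 8 under the total without mitochondrial and ribosomal protein genes, 10 in male cells, 16 in female cells and 19 without the T lineage cells. Klf2, a Krüppel-like factor of quiescent lymphocytes and stem cells, had 749 CPM in NPMc+/Flt3-ITD and 94.01 CPM in Mx, 7.96-fold higher (7.604 to 8.35), and Klf6, a related factor, had 808 CPM in NPMc+/Flt3-ITD and 169 CPM in Mx, 4.79-fold higher (4.62 to 4.96). Btg2, an antiproliferative gene, had 551 CPM in NPMc+/Flt3-ITD and 69.9 CPM in Mx, 7.88-fold higher (7.47 to 8.32). Fos, an AP-1 subunit, stood at 3620.5 CPM in NPMc+/Flt3-ITD and 1164 CPM in Mx and Jund, another, at 1434 CPM in NPMc+/Flt3-ITD and 583 CPM in Mx. Egr1, an early growth response factor, had 345 CPM in NPMc+/Flt3-ITD and 276 CPM in Mx, and Ier3, another early gene, had 193 CPM in NPMc+/Flt3-ITD and 174 CPM in Mx, so the members differed in size. Any part of sample handling in these values was not tested, and the labels give no handling times.

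Of 19 NF-kB and inflammatory genes 6 were at least 2-fold higher and 1 lower, with a median of 0.45. Cd69, an early activation receptor of lymphocytes, had 333 CPM in NPMc+/Flt3-ITD and 13.1 CPM in Mx, 25.4-fold higher (22.5 to 28.7) and was detected in 53.9% of NPMc+/Flt3-ITD cells and 2.81% of Mx cells. Tnfaip3, the A20 feedback inhibitor of NF-kB, had 61.7 CPM in NPMc+/Flt3-ITD and 11.7 CPM in Mx, 5.29-fold higher (4.63 to 6.08), and Cxcl2, a neutrophil chemokine gene, had 20.7 CPM in NPMc+/Flt3-ITD and 3.63 CPM in Mx, 5.703-fold higher (4.48 to 7.35). Nfkbia, another feedback inhibitor, had 261 CPM in NPMc+/Flt3-ITD and 233 CPM in Mx. Of 9 MAP kinase feedback genes 3 were higher and 3 lower. Dusp5 and Dusp6, which both dampen ERK, differed in opposite directions, with Dusp6 at 21.9 CPM in NPMc+/Flt3-ITD and 61.6 CPM in Mx, 2.82-fold lower (2.55 to 3.11).

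Of 16 p53 targets 4 were at least 2-fold higher and 0 lower, with a median of 0.59. Pmaip1, the death gene known as Noxa, had 24.5 CPM in NPMc+/Flt3-ITD and 0.382 CPM in Mx, 64.1-fold higher (32.3 to 149), and Perp, a membrane protein gene of p53-dependent death, had 21.2 CPM in NPMc+/Flt3-ITD and 2.82 CPM in Mx, 7.54-fold higher (5.76 to 10.04). Mdm2, the p53 ubiquitin ligase, had 58.1 CPM in NPMc+/Flt3-ITD and 45.7 CPM in Mx. In the Bcl2 family 2 of 12 were higher, Bcl2 and Pmaip1, while Mcl1, another survival gene, had 133 CPM in NPMc+/Flt3-ITD and 129.9 CPM in Mx. Heat shock proteins and the unfolded protein response differed less, with 1 of 18 and 3 of 24 members higher and 0 lower, and the share of the heat shock list (5.56%) lay near the 5.42% of all genes. Xbp1, a factor of the unfolded protein response, had 231 CPM in NPMc+/Flt3-ITD and 68.1 CPM in Mx, 3.397-fold higher (3.21 to 3.600), and Hspa1a, the inducible HSP70, had 40.2 CPM in NPMc+/Flt3-ITD and 14.6 CPM in Mx, 2.76-fold higher (2.43 to 3.14).

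Interferon-stimulated genes were slightly lower. Of 33 measured members 4 were at least 2-fold lower and 1 higher, with a median of -0.53, and in female cells the median was -0.10. Under the total without mitochondrial and ribosomal protein genes, with further members over the floor, 10 were lower, with a median of -0.75. Ifi44, an interferon-induced antiviral gene, had 3.19 CPM in NPMc+/Flt3-ITD and 21.2 CPM in Mx, 6.65-fold lower (5.27 to 8.47). Ifih1, the cytosolic RNA sensor MDA5, had 18.99 CPM in NPMc+/Flt3-ITD and 41.6 CPM in Mx, 2.19-fold lower (1.96 to 2.45). Isg15, a ubiquitin-like modifier, had 18.5 CPM in NPMc+/Flt3-ITD and 35.1 CPM in Mx, and Bst2, tetherin, had 194 CPM in NPMc+/Flt3-ITD and 147 CPM in Mx. Of 9 interferon-inducible GTPase genes 3 were lower and 0 higher, with Tgtp2 at 3.52 CPM in NPMc+/Flt3-ITD and 39.4 CPM in Mx, 11.2-fold lower (9.04 to 13.99). The GTPase median was -0.25, -0.44 in male cells and 1.02 in female cells, so the direction was reversed between the sexes. Under the total without mitochondrial and ribosomal protein genes 7 of the GTPase genes were lower, with a median of -1.07. A pair of GAAA blocks 2 bases apart, the core of the interferon response element, was searched on both strands and was found in 12 of the 26 promoters of the interferon list (46.2%), against 8.20% of the promoters of lower genes, 3.50% of those of higher genes and 3.99% of all promoters. The list was written from known interferon targets, so that share describes its choice. The Ifih1 window is shown with the match in capitals, 32 bases after the start.
Ifih1 promoter, chr2:62646206-62646505, minus strand: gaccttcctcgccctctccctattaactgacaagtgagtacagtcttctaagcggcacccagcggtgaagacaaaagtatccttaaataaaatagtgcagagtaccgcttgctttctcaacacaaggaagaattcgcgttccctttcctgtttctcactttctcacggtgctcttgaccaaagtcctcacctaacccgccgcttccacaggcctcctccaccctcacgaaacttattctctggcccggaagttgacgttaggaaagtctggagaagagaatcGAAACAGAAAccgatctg

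Of 9 MHC class II genes 1 was at least 2-fold higher and 0 lower. Cd74, the invariant chain, stood at 228 CPM in NPMc+/Flt3-ITD and 383 CPM in Mx, 1.68-fold lower (1.63 to 1.74), and was 1.98-fold lower among male cells and 2.03-fold higher among female cells. The class II median was -0.29 in all cells and 1.005 in female cells. Of 19 MHC class I and peptide loading genes 1 was higher (5.26%, near the 5.42% of all genes) and 0 were lower. The higher member was Tap2, at 364 CPM in NPMc+/Flt3-ITD against 169 CPM in Mx. B2m, beta-2 microglobulin, stood at 5759.6 CPM in NPMc+/Flt3-ITD against 4451 CPM in Mx.

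Hox genes, which NPMc+ leukemias are known to express highly, differed both ways in this library. Those measured were Hoxa5, Hoxa7, Hoxa9, Hoxa10 and Hoxb4, with log2 ratios of 0.79, 0.68, -0.07, -0.42 and -1.24. The other Hox genes of the list were under 20 CPM in both libraries. Of 13 measured Hoxa and Hoxb genes and cofactors 0 were at least 2-fold higher and 2 lower. Their median, over Hox genes and cofactors together, was -0.07, or 0.40 without the T lineage cells. Hoxa9 had 115 CPM in NPMc+/Flt3-ITD and 121 CPM in Mx, 1.05-fold lower (0.993 to 1.103), and Meis1, its cofactor, had 188 CPM in NPMc+/Flt3-ITD and 324 CPM in Mx, 1.73-fold lower (1.67 to 1.79). Hoxa5 had 39.4 CPM in NPMc+/Flt3-ITD and 22.8 CPM in Mx, and Hoxb4 had 11.6 CPM in NPMc+/Flt3-ITD and 27.6 CPM in Mx, 2.37-fold lower (2.06 to 2.72), although its log2 ratio was 0.34 in female cells. Of 37 stem cell transcription factors 6 were higher and 4 lower. Tcf15, a factor of quiescent stem cells, had 8.05 CPM in NPMc+/Flt3-ITD and 35.1 CPM in Mx, 4.36-fold lower (3.74 to 5.098), with a log2 ratio of 0.05 in female cells, whereas Hmga2, a chromatin protein of fetal stem cells, had 50.1 CPM in NPMc+/Flt3-ITD and 13.9 CPM in Mx, 3.61-fold higher (3.18 to 4.11). Npm1, the gene that carries the NPMc+ lesion (mm10 chromosome 11, 33152287 to 33163206, minus strand), stood at 2180.5 CPM in NPMc+/Flt3-ITD and 1628 CPM in Mx, 1.34-fold higher (1.32 to 1.36). Npm1 has near-identical copies, and one of them, Gm5611, stood at 647 CPM in NPMc+/Flt3-ITD and 1.91 CPM in Mx, so reads of Npm1 may be split between them and its value is uncertain. Gm5611 was chosen after its values were seen.

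Of 17 secreted factors and chemokines 8 were at least 2-fold higher and 3 lower, with a median of 0.88. The median was 0.25 under the total without mitochondrial and ribosomal protein genes, where further members passed the floor. Sema4a, a semaphorin gene, had 25.1 CPM in NPMc+/Flt3-ITD and 1.38 CPM in Mx, 18.1-fold higher (12.5 to 27.3), and Spp1, osteopontin, had 32.1 CPM in NPMc+/Flt3-ITD and 2.91 CPM in Mx, 11.03-fold higher (8.500 to 14.5), with a log2 ratio of -0.30 in female cells. Apoe, the lipid carrier, had 194 CPM in NPMc+/Flt3-ITD and 874 CPM in Mx, and Angpt1, angiopoietin 1, had 145 CPM in NPMc+/Flt3-ITD and 333 CPM in Mx. Tgfb1, transforming growth factor beta 1, had 487 CPM in NPMc+/Flt3-ITD and 265 CPM in Mx, 1.84-fold higher (1.78 to 1.901). In the TGF-beta pathway 2 of 13 were higher and 3 lower. Tgfbi, a secreted TGF-beta target, had 2.003 CPM in NPMc+/Flt3-ITD and 28.1 CPM in Mx, 14.02-fold lower (10.6 to 18.9), and Ldlrad4, an inhibitor of the pathway, had 28.9 CPM in NPMc+/Flt3-ITD and 1.38 CPM in Mx, 20.9-fold higher (14.4 to 31.4). Among 24 cytokine receptors 4 were higher and 1 lower, with Csf2rb, the shared beta chain of the interleukin-3 and GM-CSF receptors, at 36.5 CPM in NPMc+/Flt3-ITD and 11.2 CPM in Mx, 3.25-fold higher (2.82 to 3.77). Among 24 adhesion genes 5 were higher and 4 lower, with the integrin gene Itgb7 at 108 CPM in NPMc+/Flt3-ITD and 23.3 CPM in Mx, 4.63-fold higher (4.21 to 5.11) and the endomucin gene Emcn at 6.56 CPM in NPMc+/Flt3-ITD and 27.2 CPM in Mx, 4.15-fold lower (3.497 to 4.94).

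Ribosomal protein genes held the largest count of lower genes among the 36 lists. Of 86 measured members 38 were at least 2-fold lower and 0 higher, with a median of -0.83. Together they summed to 212369 CPM in NPMc+/Flt3-ITD and 313592 CPM in Mx. The list was uneven: Rps28 stood at 399 CPM in NPMc+/Flt3-ITD and 2601 CPM in Mx, 6.53-fold lower (6.39 to 6.66), while Rplp0 had 7779 CPM in NPMc+/Flt3-ITD and 6229 CPM in Mx and Rpl3 had 6873 CPM in NPMc+/Flt3-ITD and 5433 CPM in Mx. Many of these genes have near-identical retrocopies that could split reads, so single values are uncertain. Wdr89, a WD-repeat gene, had 37.7 CPM in NPMc+/Flt3-ITD and 741 CPM in Mx, 19.7-fold lower (18.5 to 20.97). Of 14 mitochondrially encoded genes 6 were lower and 0 higher. The cytochrome oxidase subunit gene mt-Co2 had 3.04 CPM in NPMc+/Flt3-ITD and 69.5 CPM in Mx, 22.9-fold lower (18.3 to 28.9) and the ATP synthase subunit gene mt-Atp6 had 57.2 CPM in NPMc+/Flt3-ITD and 679 CPM in Mx, 11.9-fold lower (11.3 to 12.5), whereas mt-Cytb, cytochrome b, had 2937 CPM in NPMc+/Flt3-ITD and 2237 CPM in Mx and mt-Nd1, a complex I subunit gene, had 2241 CPM in NPMc+/Flt3-ITD and 1341 CPM in Mx. Of 64 nuclear genes of oxidative phosphorylation 15 were lower and 0 higher, led by the complex I gene Ndufb4 at 12.1 CPM in NPMc+/Flt3-ITD and 107 CPM in Mx, 8.82-fold lower (7.85 to 9.94).

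Rps28, Wdr89 and mt-Atp6 differed little between the classes of NPMc+/Flt3-ITD cells. With at least 3, 1 to 2 and 0 T lineage UMIs, Rps28 stood at 366, 411 and 383 CPM, Wdr89 at 37.04, 35.1 and 35.2 CPM and mt-Atp6 at 57.4, 55.3 and 55.5 CPM. Male and female NPMc+/Flt3-ITD cells had 382 and 454 CPM of Rps28, and male and female Mx cells had 2624 and 2689 CPM. The share of lower genes was highest among short transcripts, in counts that include ribosomal protein genes. Under 600 bases the median log2 ratio was -0.10 with those genes and 0.002 over the 272 genes without them. From 600 to 1000 bases these medians were 0.25 and 0.26. Of 300 measured genes with a median transcript under 600 bases 65 (21.7%) were at least 2-fold lower, against 67 of 1240 (5.403%) from 600 to 1000 bases, 59 of 2055 (2.87%) from 1000 to 2000, 82 of 2204 (3.72%) from 2000 to 4000 and 27 of 811 (3.33%) from 4000 bases on. The part of library preparation or counting in this was not tested.

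Other housekeeping groups had few members 2-fold apart. Of 49 ribosome biogenesis genes 1 was at least 2-fold higher, Mycn, and 0 were lower, with a median of 0.32. Of 26 glycolysis and hypoxia genes 3 were higher and 2 lower, with a median of 0.53. They included Egln3, a prolyl hydroxylase, at 45.4 CPM in NPMc+/Flt3-ITD and 10.2 CPM in Mx, 4.44-fold higher (3.84 to 5.16) and Ldhb, a lactate dehydrogenase subunit, at 43.4 CPM in NPMc+/Flt3-ITD and 139 CPM in Mx, 3.21-fold lower (2.996 to 3.44). None of 38 chromatin and leukemia-associated regulators differed 2-fold either way, with a median of 0.02, or -0.18 under the total without mitochondrial and ribosomal protein genes. Tet2, a DNA demethylase gene, was under 20 CPM in both libraries, and Dnmt3a, a DNA methyltransferase gene, had 44.1 CPM in NPMc+/Flt3-ITD and 43.4 CPM in Mx.

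**Figure D5:**
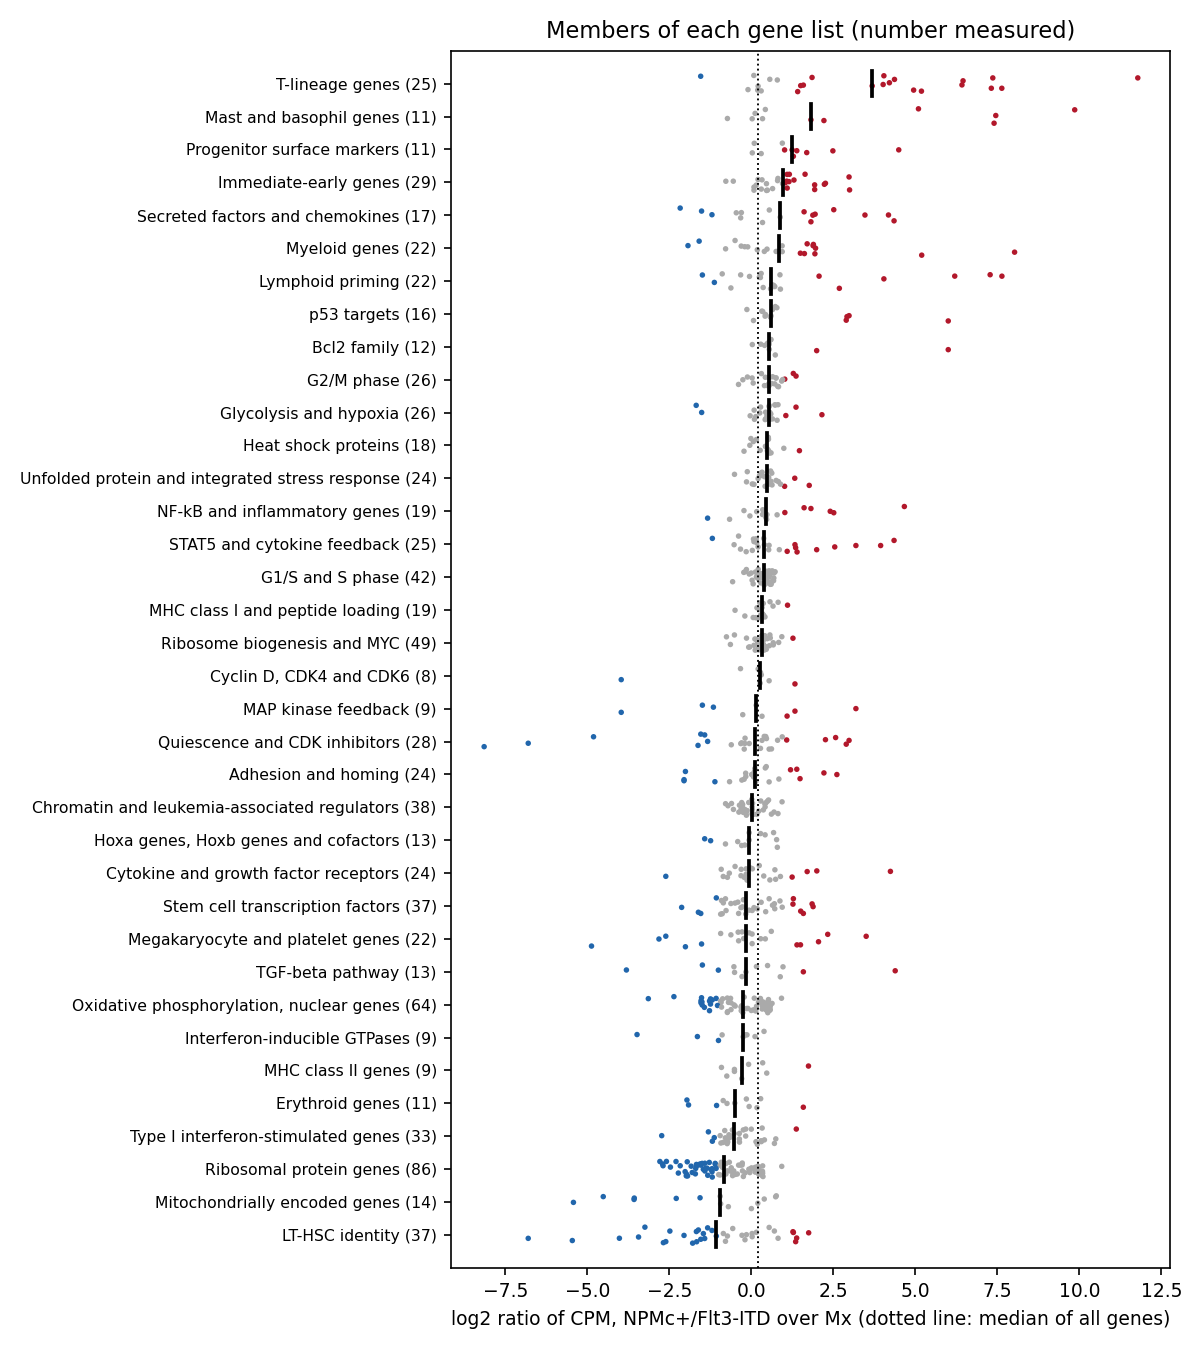
Log2 ratio of CPM, NPMc+/Flt3-ITD over Mx (horizontal), of each member (points) of 36 gene lists (rows, with the number measured), ordered by list median (black bars). Red points are at least 2-fold higher and blue points at least 2-fold lower, and the dotted line at 0.21 is the median of all 6938 genes. T-lineage genes stood at the top with a median of 3.68 and LT-HSC identity genes at the bottom with -1.07.

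Levels in the single-mutant libraries are given for a few members, all set beside the same Mx library. Cd48 stood at 720.3 CPM in NPMc+/Flt3-ITD, 121 in NPMc+, 220.3 in Flt3-ITD and 31.99 in Mx. In the same order Socs2 stood at 563, 36.9, 243 and 36.7 CPM, and was higher in both libraries with Flt3-ITD. Dntt stood at 276, 2.51, 19.2 and 1.38 CPM, and Tcf7 at 192, 2.55, 0.819 and 2.24 CPM, both highest in the double mutant. Procr stood at 32.3, 87.95, 49.4 and 103 CPM. Bcl2 stood at 327, 84.3, 58.4 and 82.4 CPM, and Klf2 at 749, 594, 1539 and 94.01 CPM, highest in Flt3-ITD alone. Rps28 stood at 399, 1349.7, 1936 and 2601 CPM.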

How the data were processed

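Single cells of 1 library per genotype were measured with the 10x Genomics 3' v2 kit, per the labels' protocols. The authors deposited UMI counts per gene and cell barcode, made with STARsolo (STAR 2.7.0c) against mm10 per the submitters' processing notes, with the strand setting and cell calling not given in the sources used here. The deposited barcodes numbered 3532 for NPMc+/Flt3-ITD and 2726 for Mx, and the filter left out 211 and 207. Counts were summed per library with Python 3.11.15, numpy 2.4.6, scipy 1.17.1 and pandas 2.3.3, and the ratio of CPM was given an exact interval from the share of UMIs. That interval covers counting error only, and the method was tested on simulated data. With 1 library per genotype no model was fitted across genes. edgeR 4.0.16 in R 4.3.3 gave the alternative TMM factors, and matplotlib 3.10.9 drew the figures. Thinning left out 330 NPMc+/Flt3-ITD and 208 Mx cells under 3000 UMIs. Doublets were not called, and an alternative left out cells with UMIs of both sexes and the deepest cells. A gene with 0 UMIs in a library was set to 3 counts over that library for a bound.

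The members and the 34 hand-written gene lists, with 2 more by name, were chosen with earlier results of these data known. Named genes were the 12 highest and 12 lowest ratios, the same among genes found in at least 20% of cells, up to 4 genes per list with the most extreme ratios, and 16 genes always named. Both rankings skipped genes with clone, prediction or retrocopy names, the mitochondrial genome, sex-linked marker genes, and antigen receptor genes apart from those named Tcrg-C. Other members, such as Gata2, Ly6a, Kit, Pim1, Socs3, Trbc1, Prtn3, Fos, Isg15, Rplp0 and mt-Nd1, were added as examples after their values were seen. Of 26687 symbols 25415 (95.2%) matched the annotation that gave positions. Alternatives were another scaling, other floors and folds, other cell filters, each sex alone, and other cell types left out. Some genes that the rule selects are not reported here.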

Additional observations from a re-analysis of the deposited data

Results flagged for a closer look

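For 3 genes the difference between NPMc+/Flt3-ITD and Mx ran in opposite directions in female and male cells, and this contrast between the sexes was not tested. Aqp1, a water channel of erythroid cells, had 62.8 CPM in NPMc+/Flt3-ITD and 26.6 CPM in Mx among female cells, a log2 ratio of 1.24. Among male cells it had 4.33 CPM in NPMc+/Flt3-ITD and 37.3 CPM in Mx, a log2 ratio of -3.11. Iigp1, an interferon-inducible GTPase, had 137 CPM in NPMc+/Flt3-ITD and 64.8 CPM in Mx among female cells, a log2 ratio of 1.08, against -2.26 among male cells. Gm4951, listed among the interferon-inducible GTPases, had 60.2 CPM in NPMc+/Flt3-ITD and 23.7 CPM in Mx among female cells, a log2 ratio of 1.35, against -1.41 among male cells. The female NPMc+/Flt3-ITD cells numbered 179.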

How the results depend on the processing

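The main counts were 376 genes higher and 398 lower. They stayed within 1.5 times under TMM scaling, cell filters, thinning, each sex alone, doublets left out and T lineage cells left out. The T lineage cut was made before thinning, and with it 277 genes were higher and 323 lower. The total without mitochondrially encoded and ribosomal protein genes, with more genes over the floor, gave 649 lower genes and a median of all genes of -0.023. A floor of 50 CPM gave 225 higher and 233 lower, a floor of 5 CPM gave 671 and 880, and counting from 1.5-fold gave 978 and 683. Leaving out cells of 5 other lineages kept 123 cells in each library and gave 1128 higher and 891 lower. Of 122 named genes at least 2-fold apart, 90 were still so in female cells and 104 without T lineage cells. In female cells the log2 ratio was reversed for Aqp1 (1.24), Trib1 (-0.48), Iigp1 (1.08), Gm4951 (1.35), Hoxb4 (0.34), Tcf15 (0.05), Id2 (-0.66) and Spp1 (-0.30). Hk2 was at 0.31 without 5 other lineages. The cause was not tested in any of these. No paired analysis was possible because each genotype had 1 library. Genes under 20 CPM and the 179 female NPMc+/Flt3-ITD cells gave few UMIs.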

Other observations

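Marker sets of other cell types are given as values. The NK or innate lymphoid set summed to 589 CPM in NPMc+/Flt3-ITD and 179 CPM in Mx, with Ncr1 and Klre1 at 0 in NPMc+/Flt3-ITD and Eomes at 0 in Mx. The stromal set summed to 62.1 CPM in NPMc+/Flt3-ITD and 11.4 CPM in Mx, with Col1a1 and Dcn at 0 in both. The monocyte, macrophage or dendritic set summed to 390.4 CPM in NPMc+/Flt3-ITD and 417 CPM in Mx, and the endothelial set to 134 CPM and 126 CPM.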
